A study of Homo sapiens with 11 samples.

Results

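The sialyltransferases described here are 10 genes of the ST6GAL, ST3GAL and ST6GALNAC groups, namely ST6GAL1, ST3GAL1, ST3GAL2, ST3GAL3, ST3GAL4, ST3GAL5, ST6GALNAC2, ST6GALNAC3, ST6GALNAC4 and ST6GALNAC6. They were found by their symbols through the Entrez identifiers of the count tables, and are 10 of the 28395 genes listed there. RNA was sequenced from PC3 and DU145 cells, 2 human prostate cancer cell lines, each carrying either a lentivirus with the ST6GAL1 open reading frame (ST6GAL1 overexpression) or a Lenti-ORF control virus, so that every group was transduced. The cells were stable transduced populations, and the promoter that drives the transgene is not given in the sources used here. Counts were analysed for 3 PC3 control, 3 PC3 overexpression, 3 DU145 control and 2 DU145 overexpression libraries, the last numbered replicates 2 and 3, and DU145 overexpression replicate 1 was not analysed here. All 10 genes had counts in DU145, whereas ST6GALNAC3 had 1 count in all 6 PC3 libraries together and did not pass the expression filter in that line.

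Sialyltransferases sit in the Golgi and move sialic acid from the donor CMP-sialic acid onto the ends of glycans. The ST6GAL enzymes attach it to galactose in an α2-6 linkage, the ST3GAL enzymes attach it to galactose in an α2-3 linkage, and the ST6GALNAC enzymes attach it to N-acetylgalactosamine in an α2-6 linkage. Enzymes of these groups can share acceptors, and the sialylated ends that they build are read by lectins such as the Siglecs of immune cells. In prostate cancer cells ST6GAL1 makes the α2-6 sialylated N-glycans on which the study centred.

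Promoter sequences are shown for 4 genes that stand for the patterns seen between the lines: ST6GAL1, the targeted gene; ST3GAL4, higher in PC3; ST6GALNAC3, read in DU145 but hardly in PC3; and ST6GALNAC4, close in both. They are the 250 bases before and 50 bases after a RefSeq transcript start in GRCh38.p14, at chr3:186930276-186930575 (plus strand), chr11:126355762-126356061 (plus strand, the first of 3 windows listed for the gene), chr1:76074496-76074795 (plus strand) and chr9:127916992-127917291 (minus strand), written 5′ to 3′ in the direction of the gene. Capitals mark the GC box, GGGCGG on either strand (so also CCGCCC).
ST6GAL1: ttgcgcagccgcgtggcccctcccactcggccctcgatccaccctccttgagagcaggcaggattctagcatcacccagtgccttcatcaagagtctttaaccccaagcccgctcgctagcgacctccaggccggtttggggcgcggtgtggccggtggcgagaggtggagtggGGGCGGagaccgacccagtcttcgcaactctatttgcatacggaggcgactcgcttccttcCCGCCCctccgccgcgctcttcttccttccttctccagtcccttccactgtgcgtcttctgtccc
ST3GAL4: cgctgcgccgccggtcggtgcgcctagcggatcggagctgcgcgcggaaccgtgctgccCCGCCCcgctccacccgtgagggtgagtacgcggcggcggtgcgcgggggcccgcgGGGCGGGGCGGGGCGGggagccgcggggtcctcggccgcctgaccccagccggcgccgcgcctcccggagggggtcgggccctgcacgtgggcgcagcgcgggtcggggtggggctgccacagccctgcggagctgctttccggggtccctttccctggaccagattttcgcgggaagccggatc
ST6GALNAC3: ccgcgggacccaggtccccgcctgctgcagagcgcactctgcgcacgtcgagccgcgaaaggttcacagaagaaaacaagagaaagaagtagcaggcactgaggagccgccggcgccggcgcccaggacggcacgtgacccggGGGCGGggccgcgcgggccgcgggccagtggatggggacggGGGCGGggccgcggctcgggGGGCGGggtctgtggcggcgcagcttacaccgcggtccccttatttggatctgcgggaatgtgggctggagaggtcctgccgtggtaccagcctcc
ST6GALNAC4: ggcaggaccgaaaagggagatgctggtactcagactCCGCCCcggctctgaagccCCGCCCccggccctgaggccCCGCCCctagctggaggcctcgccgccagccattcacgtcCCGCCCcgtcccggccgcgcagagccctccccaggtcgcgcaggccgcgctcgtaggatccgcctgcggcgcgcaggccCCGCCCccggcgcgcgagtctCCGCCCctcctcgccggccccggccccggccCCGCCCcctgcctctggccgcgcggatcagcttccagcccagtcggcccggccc
The GC box occurs 2 times in the ST6GAL1 window, 4 times in that of ST3GAL4, 3 times in that of ST6GALNAC3 and 7 times in that of ST6GALNAC4. Of all 35116 promoter windows of this length in the table, 45.0% hold at least 1 GC box, 26.7% at least 2 and 15.8% at least 3. The TATA motif TATAAA, searched on both strands, is not in these 4 windows and is in 11.5% of all windows. The windows of ST6GAL1, ST6GALNAC3, ST6GALNAC4 and ST3GAL4 hold 24, 35, 39 and 46 CpG dinucleotides, against a median of 14 over all windows. The other 2 windows of ST3GAL4 hold 9 and 8 CpG dinucleotides and 1 GC box each. These matches describe the letters only, and the RNA counts do not measure what binds there. In all, 7 of the 10 genes were matched in the table, not ST3GAL1, ST3GAL2 and ST6GALNAC2.

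Counts on genes totalled between 13194485 and 18201359 per library, and levels are given as normalised CPM, gene counts relative to the size of the library, scaled over the 11 libraries together. The epithelial markers KRT8, KRT18, EPCAM and CDH1 were all read in every group, with summed levels of 495 to 531 CPM in PC3 and 880 to 1091 CPM in DU145. Among luminal prostate markers KLK3 and KLK2 were listed at 0 in every library, and HOXB13 and TMPRSS2 were read in PC3 but had at most 2 counts in any DU145 library. Summed levels of 5 leukocyte markers stayed at or below 2.90 CPM. CD3E was at 0 in every library. Those of 4 endothelial markers reached 14.7 CPM in PC3 and 2.01 CPM in DU145, and those of 5 fibroblast markers 35.8 and 7.25 CPM. The fibroblast markers DCN, LUM and COL1A2 had at most 3 counts in any library. With overexpression in PC3, the fibroblast marker COL3A1 was higher (log2 1.98) and COL1A1 lower (log2 -0.47), and the epithelial CDH1 was higher (log2 1.37). In DU145 the endothelial PECAM1 was higher (log2 1.63), on 3, 7 and 6 counts in the controls and 12 and 26 with overexpression. PECAM1 thus passed the expression filter only through the overexpression libraries, where it is high. The other endothelial markers, VWF, CDH5 and KDR, were not tested in DU145. CDH1 was higher there (log2 0.26), while EPCAM, KRT18 and KRT8 were lower (log2 -0.35, -0.25 and -0.27). The part of other cell types in the results was not tested, and in bulk RNA fewer cells of a type and less RNA per cell cannot be told apart.

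The 2 DU145 overexpression libraries differed from each other more than the libraries of any other group did. Their counts differed by a chi-square of 12.6 per degree of freedom, against 1.37 to 5.21 for the 9 pairs within the other groups. The log2 ratio of replicate 3 to replicate 2 went with the GC content of the transcript over 14510 genes (Pearson 0.467, Spearman 0.607, across genes, which are not independent replicates), whereas in the other pairs Pearson values lay between -0.04 and 0.17 and Spearman values between -0.13 and 0.29. ST6GALNAC4, with a GC content of 63.9%, was 1.76 times as high in replicate 3 as in replicate 2, ST3GAL2 (55.9%) 1.36 times, and ST3GAL5 (44.9%) 0.613 times. ST3GAL1, ST6GALNAC2 and ST6GALNAC3 had ratios of 0.955, 1.05 and 1.06. Results in DU145 are therefore also given without 1 of these libraries where that moves a change past or short of a threshold or turns its direction. For ST3GAL3 and ST3GAL4 the range with single libraries left out is given instead. The part of GC content in these results was not tested.

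**Figure D1:**
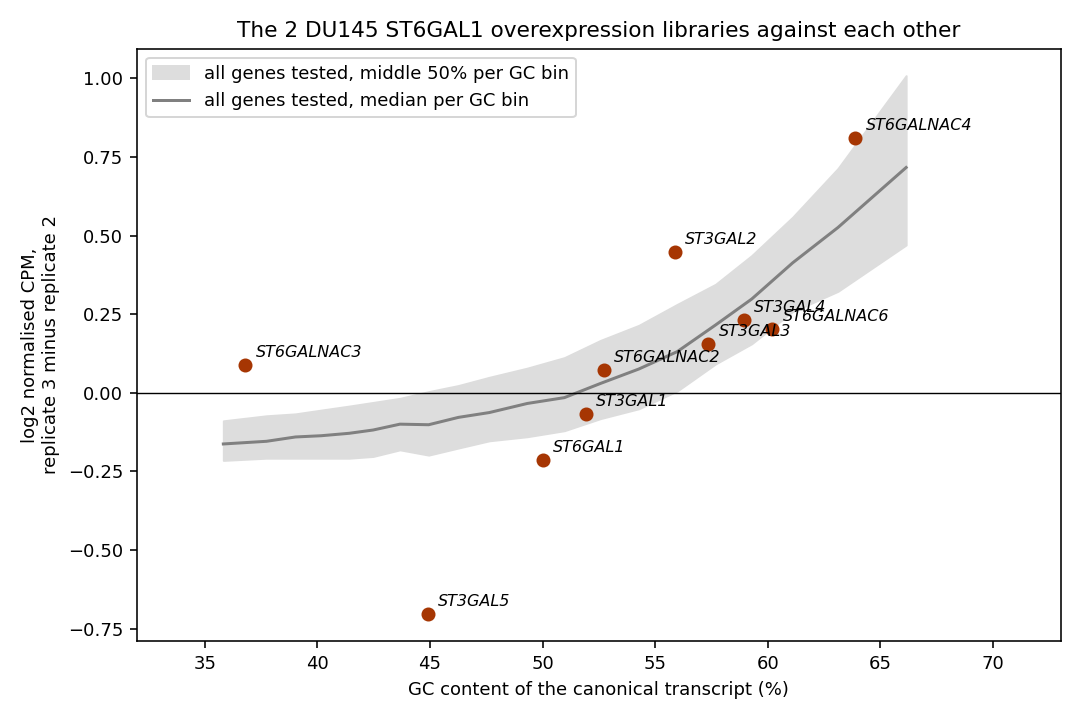
Log2 normalised CPM of DU145 overexpression replicate 3 minus replicate 2 on the vertical axis against the GC content of the canonical transcript in percent, with the 10 sialyltransferases as points and all tested genes as a line (median per GC bin) over a band (middle 50% per bin). The line climbs with GC content, ST6GALNAC4 and ST3GAL2 lie above zero, and ST3GAL5 lies lowest at -0.70.

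Overexpression was first read on the targeted gene. ST6GAL1 (Entrez 6480, chromosome 3, 186930526 to 187078553, GRCh38) was at 2.97, 2.09 and 3.06 normalised CPM in the PC3 control libraries and at 33.3, 31.7 and 32.6 in the PC3 overexpression libraries. In DU145 the control libraries were at 14.3, 13.1 and 11.4 and the overexpression libraries at 346 and 299. All overexpression libraries lay far above the controls of their own line, and the PC3 overexpression libraries stood nearer to the DU145 controls than to the DU145 overexpression libraries. The level rose 12.0-fold in PC3 (95% interval 10.4 to 13.8) and 25.0-fold in DU145 (21.4 to 29.2), with adjusted p = 1.37e-28 and 1.48e-11 by edgeR's quasi-likelihood test. DU145 overexpression cells held 9.91 times the mean ST6GAL1 level of PC3 overexpression cells, a ratio that combines the higher DU145 starting level with the larger rise. Counts per gene do not separate reads of the transgene from those of the cell's own ST6GAL1.

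**Figure D2:**
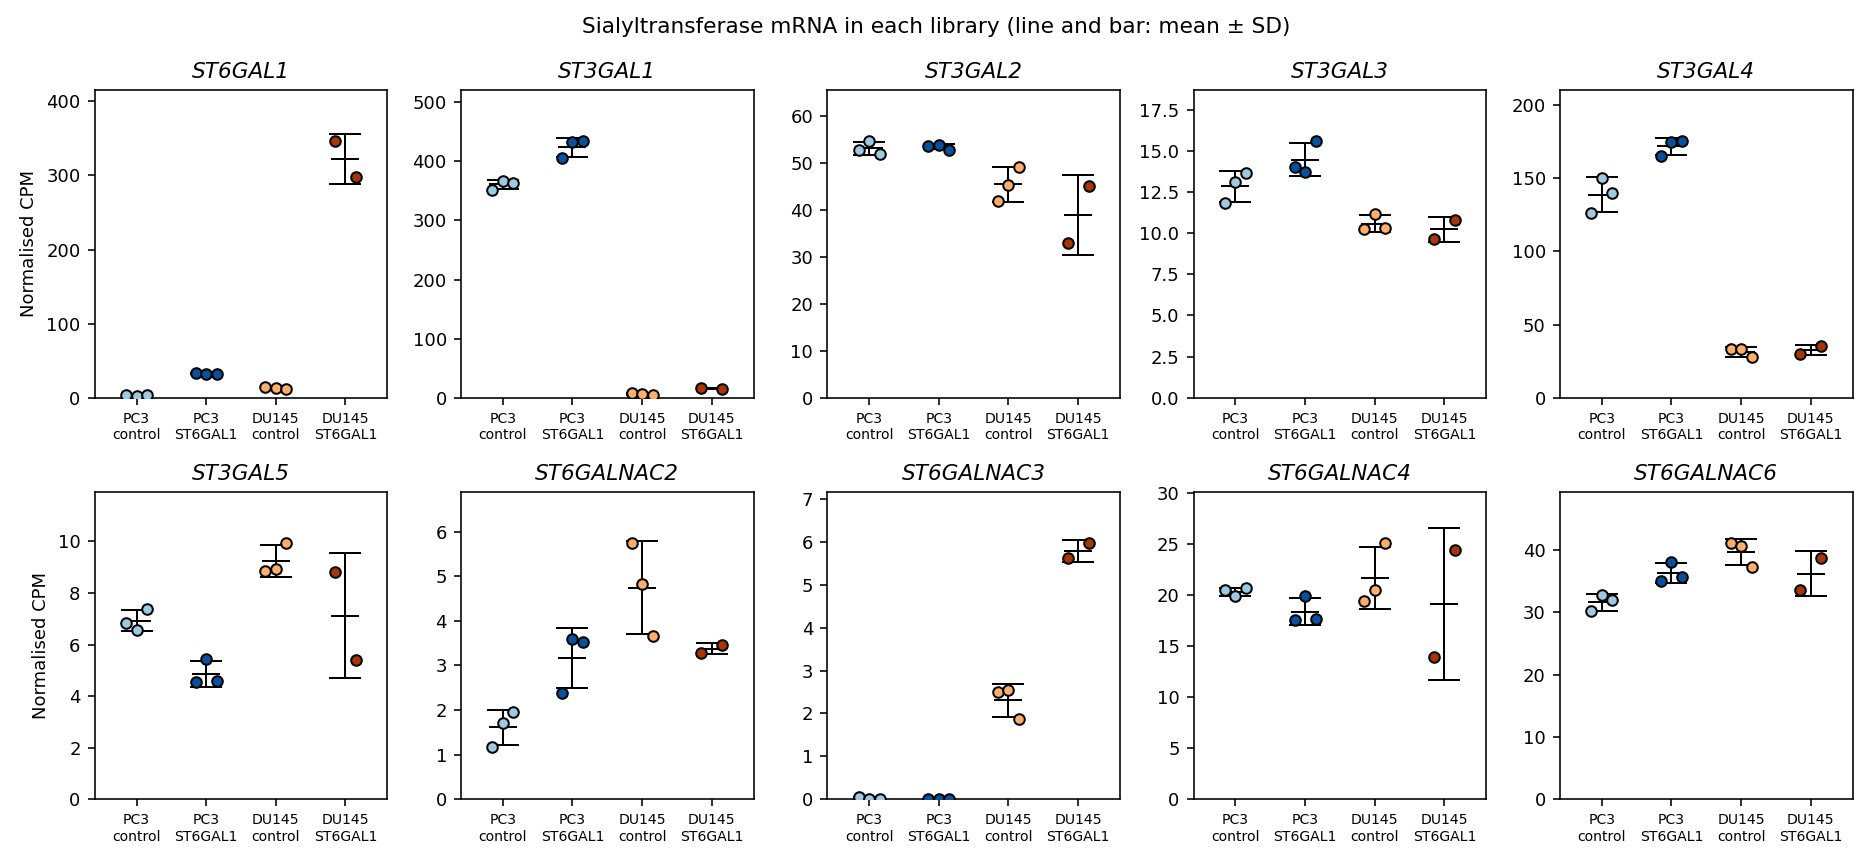
Normalised CPM (vertical axes, from 0, a separate scale for each gene) of the 10 sialyltransferases in each library of the 4 groups, with points for libraries and a line and bar for the mean and SD. ST6GAL1 rises in both lines, ST3GAL1 and ST6GALNAC3 rise in DU145, and the 2 DU145 overexpression points lie apart for ST3GAL5 and ST6GALNAC4.

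Calls needed both an absolute log2 fold change over 0.58 and a p under 0.05 after Benjamini-Hochberg adjustment over all tested genes. In PC3, 2 of the 9 tested sialyltransferases were called, both higher (ST6GAL1 and ST6GALNAC2), against 5.38% of all tested genes, 3.61% higher and 1.76% lower. In DU145, 3 of 10 were called, all higher (ST6GAL1, ST3GAL1 and ST6GALNAC3), against 8.94% of all tested genes, 4.33% higher and 4.61% lower. Without the fold threshold, 6 of 9 passed in PC3 (5 higher and 1 lower, against 37.3% of all genes, 18.8% higher and 18.5% lower). In DU145, 3 of 10 passed, all higher, against 20.1% of all genes, 10.7% higher and 9.42% lower. The control and overexpression libraries did not overlap for 7 of 9 genes in PC3 and 5 of 10 in DU145, shares to be read against 46.1% and 48.4% of all tested genes. The median log2 fold change of the sialyltransferases was 0.20 in PC3 and -0.08 in DU145, beside -0.0016 over all genes in each line. Without ST6GAL1 the medians were 0.19 and -0.13. ST6GAL1 was the targeted gene, so its part in all these counts was set by the design. The other called genes were ST6GALNAC2 in PC3, and ST3GAL1 and ST6GALNAC3 in DU145.

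**Figure D3:**
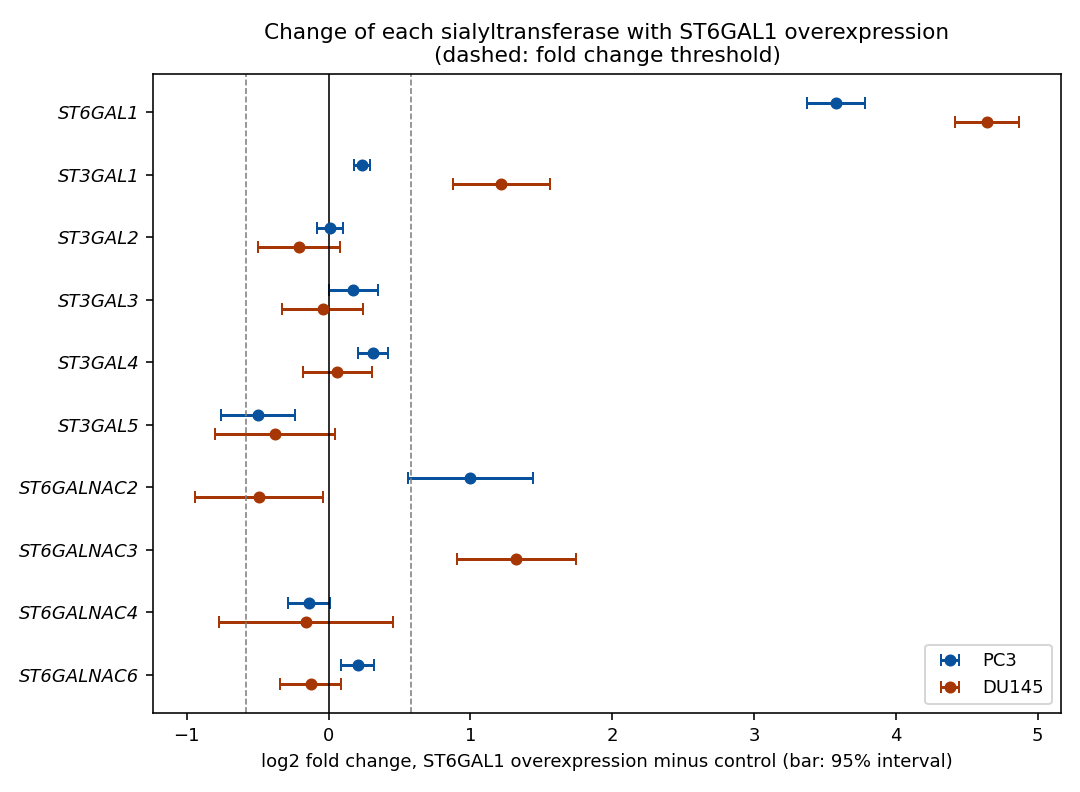
Log2 fold change (overexpression minus control, horizontal axis) of each sialyltransferase in PC3 (blue) and DU145 (red), with 95% intervals and dashed lines at the fold threshold. ST6GAL1 lies at 3.58 and 4.65, ST6GALNAC2 lies right of zero in PC3 and left of it in DU145, and ST6GALNAC3 has no PC3 value.

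ST3GAL1 and ST3GAL2 add α2-3 sialic acid to the galactose of core O-glycans, ST3GAL2 also to that of gangliosides. In DU145, ST3GAL1 was at 7.99, 6.34 and 5.31 CPM in the controls and at 15.6 and 14.9 CPM with overexpression, and every overexpression library lay above every control. It rose 2.33-fold (95% interval 1.84 to 2.95, adjusted p = 0.000105 by edgeR), and the log2 fold change was 1.17 without overexpression replicate 2 and 1.25 without replicate 3. In PC3, where ST3GAL1 had the highest level per length of the family, it went from 352, 367 and 364 CPM to 405, 432 and 434 CPM. The PC3 groups were also apart, yet the difference was 1.18-fold (adjusted p = 5.72e-09 by edgeR), well under the fold threshold.

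ST3GAL2 was at 52.8, 54.7 and 51.9 CPM in the PC3 controls and 53.7, 53.9 and 52.9 CPM with overexpression, and the groups overlapped. The log2 difference was 0.01 with a 95% interval of -0.08 to 0.10. In DU145 it was at 41.9, 45.3 and 49.2 CPM in the controls and at 33.0 and 45.0 CPM with overexpression, of which replicate 2 lay below all controls and replicate 3 among them. The log2 difference of -0.21 (adjusted p = 0.300 by edgeR) became -0.45 (adjusted p = 0.00337) without replicate 3 and -0.02 without replicate 2.

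ST3GAL3 and ST3GAL4 add α2-3 sialic acid to the galactose of N-acetyllactosamine chains, the acceptor that ST6GAL1 uses as well. ST3GAL4 was at 126, 150.1 and 140.0 CPM in the PC3 controls and at 165, 174 and 175 CPM with overexpression, with no overlap. It was 1.24-fold higher (log2 0.31, adjusted p = 0.000143 by edgeR), under the fold threshold. In DU145 it was at 33.1, 33.5 and 27.5 CPM in the controls and 30.0 and 35.2 CPM with overexpression, with overlapping groups and a log2 difference of 0.06 (95% interval -0.18 to 0.31). That difference lay between -0.058 and 0.16 with single libraries left out, so its direction turned. ST3GAL3 ranged from 9.67 to 15.6 CPM over all 11 libraries, and its log2 differences were 0.17 in PC3 (adjusted p = 0.113) and -0.04 in DU145 (adjusted p = 0.859 by edgeR). The DU145 value also turned direction, between -0.12 and 0.019 with single libraries left out.

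ST3GAL5, the synthase of the ganglioside GM3, was the member that was lower in PC3. Its level was 6.83, 6.57 and 7.37 CPM in the PC3 controls and 4.56, 5.46 and 4.61 CPM with overexpression, all below the controls. The log2 fold change was -0.50 (SE 0.129, adjusted p = 0.00204 by edgeR), short of the fold threshold, and -0.59 without overexpression replicate 2, which passes it. In DU145 the controls were at 8.85, 8.94 and 9.94 CPM, and the overexpression libraries parted, replicate 2 at 8.83 CPM beside the controls and replicate 3 at 5.41 CPM below them. The log2 difference was -0.38 (adjusted p = 0.203), -0.05 without replicate 3 (adjusted p = 0.839) and -0.77 without replicate 2 (adjusted p = 0.00397), so that the DU145 value rests on replicate 3.

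ST6GALNAC2 adds sialic acid to the N-acetylgalactosamine at the base of O-glycans. In PC3 it was at 1.18, 1.71 and 1.96 CPM in the controls and at 2.38, 3.58 and 3.53 CPM with overexpression, and the groups did not overlap. These levels stand on 21 to 30 counts per control library and 35 to 65 counts per overexpression library. It rose 2.00-fold (95% interval 1.47 to 2.71, adjusted p = 0.000302 by edgeR), and its log2 fold change was never under 0.80 nor over 1.16 when single libraries were left out. In DU145 it was at 5.75, 4.82 and 3.66 CPM in the controls and at 3.29 and 3.46 CPM with overexpression, the lower group lying just under the lowest control. The log2 difference there was -0.49 (95% interval -0.95 to -0.04), with adjusted p = 0.123.

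ST6GALNAC3 and ST6GALNAC4 add a further sialic acid to N-acetylgalactosamine in acceptors that already carry an α2-3 linked one. ST6GALNAC3 was at 2.51, 2.54 and 1.87 CPM in the DU145 controls and at 5.61 and 5.97 CPM with overexpression, with every overexpression library above every control. It rose 2.50-fold (95% interval 1.87 to 3.35, adjusted p = 0.000282 by edgeR) on 25 to 40 counts per control library and 87 and 107 counts per overexpression library, and its log2 fold change was 1.35 without replicate 2 and 1.28 without replicate 3. In PC3 it had 1, 0 and 0 counts in the controls and 0 counts in each overexpression library. A group total of 3 counts, taken as the floor, corresponds to 0.0616 CPM in the PC3 overexpression libraries, and such floors cover counting error only. Over this floor the DU145 overexpression level was at least 94.2-fold higher than that of PC3.

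ST6GALNAC4 was at 20.5, 19.9 and 20.7 CPM in the PC3 controls and at 17.5, 20.0 and 17.7 CPM with overexpression, and the groups overlapped. The log2 difference was -0.14 (95% interval -0.29 to 0.01). In DU145 it was at 19.4, 20.5 and 25.1 CPM in the controls, while the overexpression libraries parted, replicate 2 at 13.9 CPM below all controls and replicate 3 at 24.4 CPM among them. The log2 difference of -0.16 had the widest interval in the family (-0.78 to 0.45), and it was -0.62 without replicate 3 (adjusted p = 0.00327) and 0.17 without replicate 2 (adjusted p = 0.419 by edgeR).

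ST6GALNAC6, which acts on gangliosides and on sialylated type I chains, was at 30.1, 32.7 and 31.9 CPM in the PC3 controls and 35.0, 38.0 and 35.6 CPM with overexpression. The groups were apart, with a log2 difference of 0.20 (adjusted p = 0.00377 by edgeR, and 0.0510 without overexpression replicate 2), under the fold threshold. In DU145 it was at 41.1, 40.6 and 37.2 CPM in the controls and 33.6 and 38.7 CPM with overexpression, and the groups overlapped (log2 difference -0.13, adjusted p = 0.411, and -0.23 without overexpression replicate 3 or -0.04 without replicate 2, neither of which passed).

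An interaction term fitted to the 11 libraries asked whether the lines changed unequally with overexpression, and is written as the DU145 change minus the PC3 change. It passed for 4 of 10 sialyltransferases (2 higher and 2 lower in DU145), against 19.7% of all tested genes (10.4% higher and 9.36% lower). ST6GAL1 and ST3GAL1 had the larger change in DU145, by 1.06 (SE 0.179, adjusted p = 0.000286) and 0.98 (SE 0.126, adjusted p = 1.33e-05 by edgeR) on the log2 scale. ST6GALNAC2 changed unequally, with a difference of -1.50 (95% interval -2.17 to -0.82, adjusted p = 0.00239), where the PC3 rise passed on its own and the DU145 value did not. These differences also passed with any single library left out, as the largest adjusted p values were 0.00478 for ST6GAL1, 0.000239 for ST3GAL1 and 0.0117 for ST6GALNAC2. ST6GALNAC6 had a difference of -0.33 (adjusted p = 0.0324) that did not pass with any of 7 of the 11 libraries left out, with DESeq2 (adjusted p = 0.0628) or with the replicate number as a block (0.0598). Those 7 libraries were PC3 control replicates 1 and 3, PC3 overexpression replicates 2 and 3, DU145 control replicates 1 and 2 and DU145 overexpression replicate 2.

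For the other 6 genes the interaction did not pass, which does not show that the lines responded alike. The intervals of the difference were -0.50 to 0.06 for ST3GAL2, -0.52 to 0.08 for ST3GAL3, -0.51 to 0.01 for ST3GAL4, -0.36 to 0.58 for ST3GAL5 and -0.59 to 0.56 for ST6GALNAC4. Without DU145 overexpression replicate 3 the number that passed was 7, with ST3GAL2 (-0.48), ST3GAL4 (-0.39) and ST6GALNAC4 (-0.50) added. In that fit the number over all genes went from 2949 to 5161. Without DU145 control replicate 3, ST3GAL4 alone was added (-0.34, adjusted p = 0.0475). For ST6GALNAC3 the fitted difference depends on the prior count, since PC3 is at or near 0.

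The control cells showed how the starting sets differ. The lines were read in separate deposited tables, so that line and table cannot be told apart. Between PC3 and DU145 controls, 5 of 10 sialyltransferases were called (2 higher and 3 lower in PC3), against 64.6% of all tested genes (32.8% higher and 31.8% lower). On adjusted p alone 9 passed (4 higher and 5 lower), against 88.2% of all genes (44.1% in each direction). The libraries did not overlap for 9 of 10, against 88.5%. The share of called genes was therefore not above that of genes in general. ST3GAL1 was 54.6-fold higher in PC3 (95% interval 49.0 to 60.8, adjusted p = 6.67e-30) and ST3GAL4 4.39-fold higher (3.95 to 4.88, adjusted p = 2.88e-17 by edgeR). ST6GAL1 was 4.77-fold lower in PC3 (adjusted p = 1.70e-14) and ST6GALNAC2 2.99-fold lower (adjusted p = 1.07e-07 by edgeR). ST6GALNAC3 had 103 counts in the DU145 controls together and 1 in the PC3 controls, a CPM ratio of 114 with an exact counting interval of 20.0 to 4547. It passed the expression filter only through DU145, where it is high. Its place in the numbers called, passing and not overlapping therefore carries no information on the family.

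The remaining genes were near each other. ST3GAL2 and ST3GAL3 were higher in PC3 by 0.22 and 0.27 on the log2 scale (adjusted p = 0.00176 and 0.0122), ST3GAL5 and ST6GALNAC6 lower by log2 values of -0.42 and -0.34 (adjusted p = 0.00124 and 3.54e-05 by edgeR). For ST3GAL3 the adjusted p was 0.0524 without PC3 control replicate 3 and 0.0508 with DESeq2. ST6GALNAC4 differed by -0.09 with a 95% interval of -0.27 to 0.09, and its libraries overlapped. The median over the family was -0.21, beside -0.0032 over all genes.

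**Figure D4:**
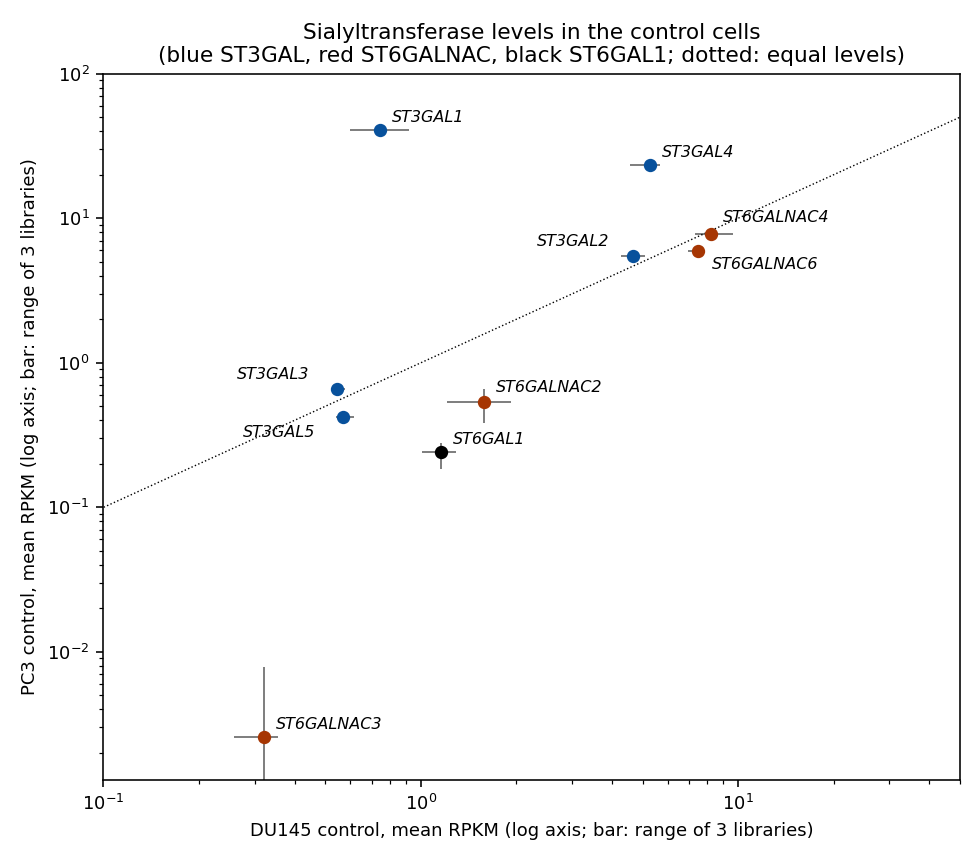
Mean level per kilobase of transcript (RPKM, log axes) of each sialyltransferase in the PC3 controls (vertical) against the DU145 controls (horizontal), with bars for the range of the 3 libraries and a dotted line of equal levels. ST3GAL1 and ST3GAL4 lie above the line, ST6GALNAC4 and ST3GAL2 close to it, and ST6GALNAC3 far below it on 1 PC3 count.

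To compare the genes with each other, levels were divided by the length of all exons of the gene together (RPKM, the CPM per kilobase). In the PC3 controls ST3GAL1 came first at 41.1 ± 0.891 RPKM (SD, n = 3) and ST3GAL4 second at 23.3 ± 2.02, followed by ST6GALNAC4 (7.73 ± 0.149), ST6GALNAC6 (5.95 ± 0.248) and ST3GAL2 (5.45 ± 0.147), all apart from their neighbours. ST3GAL3 (0.660), ST6GALNAC2 (0.537) and ST3GAL5 (0.425 RPKM) came next, and neighbours among these overlapped. ST6GAL1 was ninth at 0.243 ± 0.0483 RPKM, above ST6GALNAC3 only. This order depends on the length used. By coding length ST3GAL2 (50.6 RPKM) stood above ST6GALNAC6 (31.6), and ST6GALNAC6 above ST6GALNAC4 (22.5), with no overlap. ST6GAL1 then had rank 8 and overlapped with ST6GALNAC2.

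The DU145 controls were led by ST6GALNAC4 (8.23 ± 1.15 RPKM, SD, n = 3) and ST6GALNAC6 (7.46 ± 0.403), which overlapped. ST3GAL4 (5.26) and ST3GAL2 (4.66) also overlapped, as did ST6GALNAC2 (1.58) and ST6GAL1 (1.16 RPKM). ST3GAL1, first in PC3, was seventh at 0.745 RPKM and overlapped with ST3GAL5 (0.567), which overlapped with ST3GAL3 (0.544), and ST6GALNAC3 was last at 0.320 RPKM. With overexpression ST6GAL1 moved to the sixth place in PC3, at 2.92 ± 0.0727 RPKM (SD, n = 3), and to the first in DU145, at 28.9 ± 3.04 RPKM (SD, n = 2). Divided by coding length instead, ST3GAL2 led in the DU145 controls at 43.3 RPKM, overlapping with ST6GALNAC6. With overexpression ST6GAL1 then had rank 5 in PC3 (26.7 RPKM) and again led in DU145. Neither length suits both the transgene, an open reading frame, and the cell's own transcripts, so that these places depend on the length used.

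Summed over the 10 genes, the level was 85.4 ± 3.23 RPKM in PC3 controls and 101.3 ± 3.48 RPKM with overexpression (SD, n = 3 each). In DU145 it was 30.5 ± 0.116 RPKM in controls (SD, n = 3) and 57.1 ± 1.87 RPKM with overexpression (SD, n = 2). Without ST6GAL1 the DU145 sums were 29.4 and 28.2 ± 4.91 RPKM, and those of PC3 85.1 and 98.4 RPKM.

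ST6GAL1 made up 0.325%, 0.212% and 0.319% of the summed level in the PC3 controls and 3.07%, 2.74% and 2.84% with overexpression. In DU145 it made up 4.20%, 3.82% and 3.35% in the controls and 55.7% and 45.8% with overexpression. By this length the share was lower in the PC3 overexpression libraries than in the DU145 control libraries, with no overlap. In DU145 overexpression it approached or passed the sum of all other members. The virus carries the open reading frame (coding length 1218 bases), whereas the exons of the gene together span 11142 bases. Reads of the transgene are thus divided by a length that is not theirs, and the order of these shares is not settled. Among the 9 genes other than ST6GAL1, the ST3GAL group held 83.0% to 83.7% of the level in PC3 controls and 84.2% to 85.4% with overexpression. It held 38.8% to 41.1% in DU145 controls and 45.4% and 41.4% with overexpression. A two-sided exact permutation test over libraries cannot go below p = 0.1 with 3 against 3 or p = 0.2 with 3 against 2, and none was run on these shares.

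**Figure D5:**
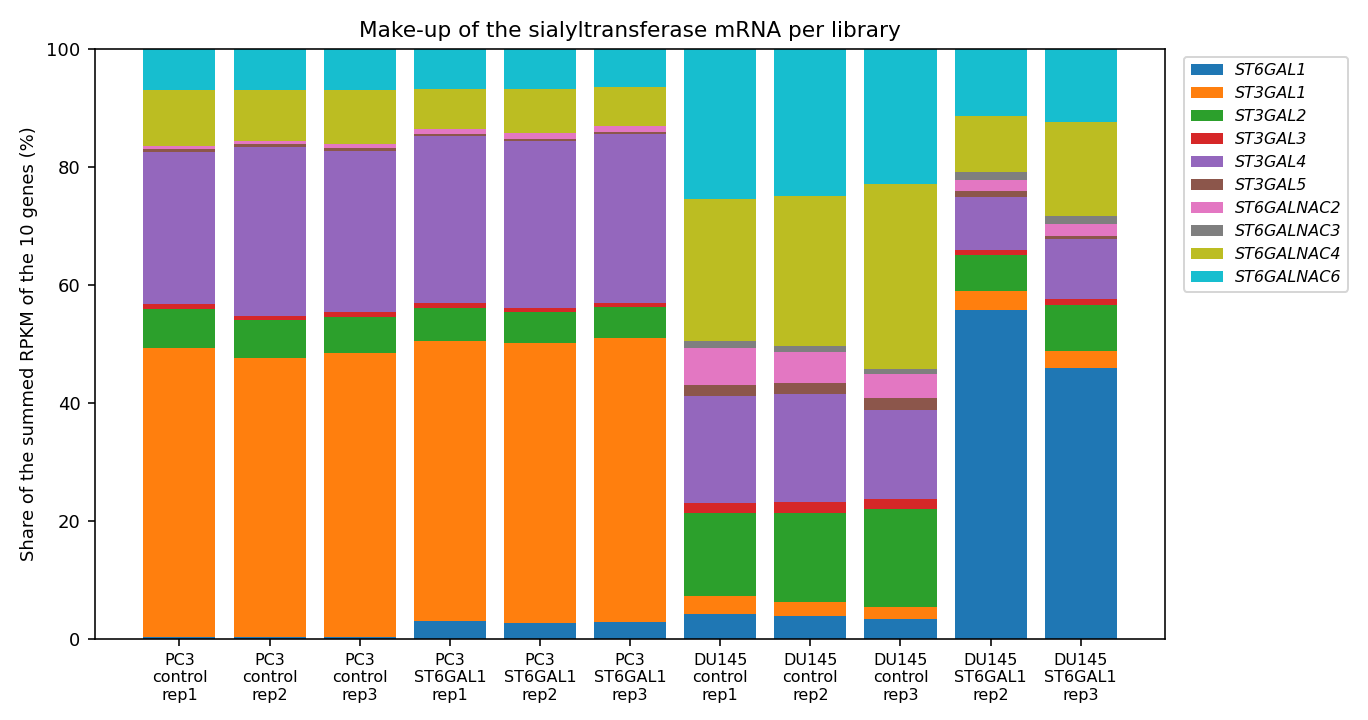
Stacked shares (in percent of the summed RPKM of the 10 genes, vertical axis) in each of the 11 libraries. ST3GAL1 and ST3GAL4 fill most of the PC3 bars, whereas ST6GALNAC4 and ST6GALNAC6 are the largest parts of the 3 DU145 control bars, and ST6GAL1 fills about as much as all the others together in the 2 DU145 overexpression bars.

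Of 10 further sialyltransferases, 3 were tested in PC3 and none was called. ST6GAL2, the other enzyme that links sialic acid α2-6 to galactose, was at 33.7, 35.0 and 36.2 CPM in the PC3 controls and 38.1, 34.7 and 37.7 CPM with overexpression, and had 0 counts in every DU145 library. Against a floor of 3 counts over the group, it was at least 515-fold higher in the PC3 controls than in the DU145 controls. Per kilobase of exon its PC3 control level of 4.84 ± 0.173 RPKM (SD, n = 3) exceeded the ST6GAL1 level of 2.92 RPKM in the PC3 overexpression cells, whereas by coding length ST6GAL1 was the higher there (26.7 against 23.2 RPKM for ST6GAL2).

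In DU145, 2 of 4 tested genes of this list were called, both higher, beside 8.94% of all tested genes (4.33% higher). ST6GALNAC5, an enzyme of α-series gangliosides, had 2, 7 and 5 counts in the controls and 18 and 23 counts with overexpression (log2 1.93, SE 0.455, adjusted p = 0.00824 by edgeR). It passed the expression filter only through the overexpression libraries, where it is high, so that its call carries no information on the list. ST8SIA4, a polysialyltransferase, had 10, 10 and 11 counts and 30 and 24 counts (log2 1.21, SE 0.343, adjusted p = 0.0231). ST8SIA4 no longer passed without overexpression replicate 2 (log2 0.92, adjusted p = 0.164), without control replicate 1 (adjusted p = 0.0910) or without control replicate 2 (adjusted p = 0.114 by edgeR). With DESeq2 neither gene passed (adjusted p = 0.0674 for ST6GALNAC5 and 0.152 for ST8SIA4). The groups did not overlap for either gene, and both stayed low, at a mean of 1.22 and 1.64 CPM with overexpression. Median log2 fold changes of this list were 0.07 in PC3 and 0.78 in DU145, the latter with ST6GALNAC5 included. Between the control cells ST3GAL6 (log2 3.01) and ST8SIA4 (log2 1.68) were called higher in PC3, beside 32.8% of all tested genes. ST8SIA6 was at least 22.9-fold higher in DU145, with 0 counts in PC3. ST6GAL2, ST8SIA4 and ST8SIA6 passed the expression filter of this comparison only through the line where they are high, so that their calls carry no information on the list. The interaction did not pass for ST8SIA4 (1.12, adjusted p = 0.0567) or ST3GAL6 (0.53, adjusted p = 0.0634 by edgeR), and it could not pass for ST6GAL2 and ST8SIA6, which have 0 counts throughout the other line. ST6GALNAC5 had at most 1 count in any PC3 library, so that its fitted difference depends on the prior count.

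Of 13 genes that supply sialic acid or take it away, 10 were tested in each line and none was called with overexpression. In PC3, 4 of 10 passed on adjusted p alone, against 37.3% of all genes, a share near the background. Higher were SIAE (log2 0.35), which removes O-acetyl groups, and the CMP-sialic acid transporter SLC35A1 (log2 0.22), and lower were the phosphatase NANP (log2 -0.24) and the synthase NANS (log2 -0.21). SLC35A1 did not pass without control replicate 2 (adjusted p = 0.0818) or overexpression replicate 3 (adjusted p = 0.184 by edgeR). In DU145, 2 of 10 passed, against 20.1% of all genes, with SIAE higher (log2 0.40) and NANS lower (log2 -0.39). SIAE had an adjusted p of 0.0522 without overexpression replicate 2 and 0.0875 without control replicate 2, and NANS of 0.0902 without control replicate 1 and 0.111 without control replicate 2. The medians were 0.04 in PC3 and 0.02 in DU145. NEU1 and NEU4, which encode sialidases, were listed at 0 in every library. That does not show that the cells lack their RNA, since the annotation and strand setting used for counting are not given. Between the control cells NANP was called higher in PC3 (log2 1.07) and NPL, a sialic acid lyase, lower (log2 -3.29).

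Galactosyltransferases place the galactose that sialyltransferases then cap. In PC3, 1 of 12 tested genes was called, beside 5.38% of all tested genes, namely B3GALT1, which makes type I chains. It was at 4.25, 3.67 and 3.52 CPM in the controls and at 8.98, 9.59 and 8.52 CPM with overexpression, a clear separation (log2 1.24, SE 0.128, adjusted p = 1.56e-10 by edgeR), and had 1 count in all DU145 libraries together. In DU145, 2 of 11 were called, beside 8.94% of all tested genes. B4GALT1, the main maker of N-acetyllactosamine, went from 351, 364 and 366 CPM to 538 and 553 CPM (log2 0.60, SE 0.0718, adjusted p = 4.50e-05). B4GALT5, which makes lactosylceramide, went from 159, 150.1 and 145 CPM to 231 and 227 CPM (log2 0.60, SE 0.0726, adjusted p = 5.02e-05 by edgeR). Both lie just over the fold threshold, and their overexpression libraries lay above all controls. B4GALT1 fell short of that threshold without control replicate 1 (log2 0.57). B4GALT5 did so without overexpression replicate 2, control replicate 2 or control replicate 3 (log2 0.56 in the last), and both passed on adjusted p in these fits.

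The medians of the galactosyltransferase list were 0.06 in PC3 and 0.03 in DU145. The change differed between the lines for B4GALT1 (0.55, adjusted p = 7.56e-06), B4GALT5 (0.66, adjusted p = 9.21e-07) and B4GALT2 (-0.42, adjusted p = 0.00426 by edgeR). B4GALT2 had log2 differences of -0.0043 in PC3 and -0.42 in DU145. The DU145 value was -0.58 without overexpression replicate 3, just past the fold threshold, and -0.29 without replicate 2, and it did not pass without control replicate 1 or 2 (adjusted p = 0.0589 and 0.0578 by edgeR). Its GC content of 64.7% is close to that of ST6GALNAC4. B3GALT2 and B3GALT4 were listed at 0 in every library, with the same limit as for NEU1 and NEU4. Between the control cells 9 of 12 were called, against 64.6% of all tested genes, and B3GALT1 and B3GALT5 passed the filter only through PC3. B3GALT1, B3GALT5 (log2 1.07, but adjusted p = 0.0637 without DU145 control replicate 2), B3GALT6 (1.73), B4GALT2 (0.99), B4GALT4 (0.78) and B4GALT7 (2.21) were higher in PC3. B4GALT1 (-2.51), C1GALT1 (-0.80) and its chaperone C1GALT1C1 (-0.75) were lower, the last pair making the core O-glycan on which ST3GAL1 acts.

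Over the 11 libraries, the genes whose log2 levels went most closely with ST6GAL1 among 10847 ranked genes were APOL6 (Pearson 0.980), NHS (0.978) and PCYOX1 (0.970). The libraries fall into 4 groups, and the values describe the order of those groups. Mean levels of APOL6 were 11.9 CPM in PC3 controls, 20.1 in DU145 controls, 21.3 in PC3 overexpression and 44.2 in DU145 overexpression libraries. For APOL6, as for NHS and PCYOX1, the 4 group means stood in the order of those of ST6GAL1. They were 15.4, 21.4, 22.8 and 34.4 CPM for NHS and 117.9, 130.0, 138 and 170.3 CPM for PCYOX1, in that order.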

How the data were processed

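RNA-Seq was carried out on poly(A) RNA of PC3 and DU145 cells with a stranded library kit. The authors used Cutadapt, HISAT2 (on hg38) and featureCounts in Galaxy to trim, map and count single reads, and deposited raw counts per gene, in a table per line with 28395 genes each. The gene annotation and the strand setting used for counting are not given in the sources used here. No annotated gene that overlaps a sialyltransferase held counts in the tables.

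Genes were tested here on these counts in edgeR 4.0.16 under R 4.3.3 (filterByExpr at its defaults, TMM factors, robust quasi-likelihood test, Benjamini-Hochberg adjustment over all tested genes). Tested were 13544 genes in PC3, 13676 in DU145, 14952 for the interaction and 14246 between control cells. Standard errors and 95% intervals follow from the fitted change and its F value. Normalised CPM are relative to TMM library sizes over all 11 libraries. RPKM used exon lengths of GENCODE annotation, and coding length and the canonical transcript were alternatives, the latter chosen after the data were seen. Alternatives for the tests were RLE factors, no filter, at least 10 counts in every library, DESeq2 1.42.0, limma-voom (limma 3.58.1), the replicate number as a block, a log2 threshold of 1 and each library left out; where this left 1 library in a group, that library is assumed to vary like the others. The same alternatives were run, after the data were seen, for the genes of the further lists that passed on adjusted p. The scripts were tested on simulated counts.

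All 10 sialyltransferases were named in each comparison, with the called genes of 3 further lists. The sialyltransferases and the lists were chosen with earlier results of these data known. The study states 3 biological repeats per condition, and p-values measure the spread between these samples. Every pair of replicates differed by more than sampling noise, and each library was counted as 1 sample. Whether the repeats were transduced apart is not given, so the p-values may not cover the spread between transductions. Columns of counts were matched to samples by name. A gene of the marker lists is not reported here. Intervals and floors cover counting error only where they come from counts of single groups.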

Additional observations from a re-analysis of the deposited data

Results flagged for a closer look

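For 4 sialyltransferases the change with ST6GAL1 overexpression differed between DU145 and PC3 by the interaction test of edgeR over all 11 libraries. On the log2 scale, as the DU145 change minus the PC3 change, the difference was 1.06 for ST6GAL1 (adjusted p = 0.000286) and 0.98 for ST3GAL1 (adjusted p = 1.33e-05). It was -1.50 for ST6GALNAC2 (adjusted p = 0.00239), which was higher in all 3 PC3 overexpression libraries than in the PC3 controls and lower in both DU145 overexpression libraries than in the DU145 controls, where the change did not pass. It was -0.33 for ST6GALNAC6 (adjusted p = 0.0324), with adjusted p up to 0.0964 when single libraries were left out. Among galactosyltransferases the difference was 0.55 for B4GALT1 (adjusted p = 7.56e-06), 0.66 for B4GALT5 (adjusted p = 9.21e-07) and -0.42 for B4GALT2 (adjusted p = 0.00426). DU145 overexpression replicates 2 and 3, which differ from each other along GC content, enter all 7 values, and the part of that difference was not tested.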

How the results depend on the processing

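The members called were the same number, 2 in PC3 and 3 in DU145, under RLE factors, both other filters, DESeq2, limma-voom and the replicate block. A log2 threshold of 1 left 1 in PC3. With single libraries left out the numbers were 2 to 3 in PC3, 3 to 4 in DU145, 3 to 7 for the difference between the lines (7 without DU145 overexpression replicate 3) and 5 to 5 between control cells. Same-numbered control and overexpression libraries did not deviate together in PC3 (correlations of -0.036, -0.022 and 0.028), nor in DU145 beyond 0.028 and 0.171, so the replicate number was not taken to pair them. With it as a block, 740 genes were called in PC3, 1517 in DU145, 3551 for the difference between the lines and 9197 between control cells, and the difference of ST6GALNAC6 did not pass (-0.31, adjusted p = 0.0598), while ST3GAL2 in DU145 passed on adjusted p alone (-0.28, adjusted p = 0.0467). The ST6GALNAC6 difference did not pass with DESeq2 either (-0.33). Without DU145 overexpression replicate 3, 2072 genes were called in DU145 instead of 1222.

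Directions turned when 1 library was left out for ST3GAL2 in PC3 (-0.0042 to 0.033), ST3GAL3 (-0.12 to 0.019), ST3GAL4 (-0.058 to 0.16) and ST6GALNAC4 (-0.62 to 0.17) in DU145, ST3GAL5 (-0.28 to 0.42) and ST6GALNAC4 (-0.50 to 0.31) for the difference between the lines, and ST6GALNAC4 between control cells (-0.17 to 0.021). The ST6GALNAC4 values of -0.62 and -0.50, both without DU145 overexpression replicate 3, passed (adjusted p = 0.00327 and 0.0122). The cause was not tested.

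Shares depended on the length used, and each length was applied to reads of the transgene and of the cell's own ST6GAL1 alike. By coding length the ST6GAL1 share was 0.361% and 3.61% in PC3 control and overexpression cells and 5.92% and 61.4% in DU145, and the ST3GAL share without ST6GAL1 91.0%, 91.7%, 58.2% and 60.0%. By canonical transcript the ST6GAL1 share was 3.42% in PC3 overexpression and 4.26% in DU145 control cells, and the ST3GAL share 84.8%, 86.2%, 49.1% and 52.3%. With a library left out, ST6GAL1 shares ranged from 0.266% to 0.322%, 2.79% to 2.96%, 3.59% to 4.01% and 45.8% to 55.7%. ST6GALNAC2 and ST6GALNAC3, with under 110 counts per library, have wide intervals.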
